A study of Mus musculus with 35 samples.

Results

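The interferon-inducible GTPases described here are 5 immunity-related GTPases (IRG: Iigp1, Tgtp1, Igtp, Irgm1 and Irgm2) and 4 guanylate-binding proteins (GBP: Gbp2, Gbp3, Gbp7 and Gbp10). They are 9 of the 17097 genes measured on arrays of mouse lung. Of the 10 genes listed, Gbp6 had no probe set of its own in the annotation used here and was not analysed here. The members were chosen by name, as the probe sets to which the platform annotation gives exactly that symbol, 13 in all, and the brightest probe set stands for a gene. They were listed with results of these data known, namely high levels of Iigp1 and Gbp10 at 5 ppm and of Tgtp1 at 120 ppm against air. For the members, differences from air, and differences that use the 5 or 120 ppm mice, are therefore descriptions without a test. Genes of other lists, also chosen with earlier results known, are given with the adjusted p of the fit over all genes.

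Adult male CD-1 mice, an outbred stock bought from Taconic, breathed air only (0 ppm) or styrene at 1, 5, 10, 20, 40 or 120 ppm, and whole lung was taken on the following morning. Each of the 7 groups held 5 mice with 1 array each, 35 in all, and no group carried a transgene or a second agent. The labels disagree on the length of exposure, which is 6 hours on 1 day in the titles and protocol but 5 days in the characteristics. Values are log2 probe set summaries, so a difference of 1 is a doubling, and the level of a probe set cannot be set against that of another.

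Cells make very little of these GTPases until interferon, above all interferon gamma, reaches them. Promoters that answer to interferon carry GAS elements, ISRE elements or both, and IRF1 is among the factors that bind ISRE elements. Effector IRG proteins and GBPs gather on the membrane around intracellular parasites and bacteria and help to break it, and GBPs also open the way to inflammasome caspases. The regulatory IRG proteins Igtp, Irgm1 and Irgm2 sit on the cell's own membranes and hold the effectors off them. In the lung the family is best known from defence of macrophages and epithelium against microbes such as mycobacteria.

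The stretches of promoter that hold letters of the GAS or ISRE elements are shown because the members moved together between mice. RefSeq promoters (GRCm38.p6) were read for 7 members, over the 250 bases before the annotated start. The letters searched on both strands were TTCNNNGAA for GAS and GAAANNGAAA for ISRE, capitals mark a match, and 20 bases are given on each side where the window allows.
Tgtp1, chr11:48992294-48992354, minus strand: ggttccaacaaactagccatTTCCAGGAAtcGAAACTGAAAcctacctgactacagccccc
Igtp, chr11:58199491-58199551, plus strand: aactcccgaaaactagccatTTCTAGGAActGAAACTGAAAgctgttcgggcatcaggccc
Irgm2, chr11:58214882-58214942, plus strand: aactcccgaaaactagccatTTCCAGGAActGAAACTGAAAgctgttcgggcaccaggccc
Irgm1, chr11:48871421-48871470, minus strand: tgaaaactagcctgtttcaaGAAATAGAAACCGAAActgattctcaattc
Gbp2, chr3:142620584-142620633, plus strand: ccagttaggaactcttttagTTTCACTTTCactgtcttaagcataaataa
Gbp3, chr3:142559979-142560034, plus strand: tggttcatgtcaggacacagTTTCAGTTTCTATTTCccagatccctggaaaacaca
Gbp7, chr3:142530210-142530312, plus strand: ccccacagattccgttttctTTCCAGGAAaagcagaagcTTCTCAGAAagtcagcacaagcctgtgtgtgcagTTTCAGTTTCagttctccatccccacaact

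ISRE letters occurred upstream of all 7 members read (for Gbp3 at the first of its 2 annotated starts) and GAS letters upstream of 4. Among 32851 mouse promoters of the same length, 7.02% held the GAS letters, 2.98% the ISRE letters and 0.33% both. In Tgtp1, Igtp and Irgm2 the GAS and ISRE letters lay 2 bases apart. That combined run, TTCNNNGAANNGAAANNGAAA, was noticed in these genes and then searched for. It occurred in 5 of the 32851 promoters, those of Tgtp1, Igtp, Irgm2, Tgtp2 and Gm12185. In Gbp7 the nearest GAS letters lay 25 bases from the ISRE letters. The ISRE letters of Irgm1 and of Gbp3 each overlap a further match, and those of Gbp2, Gbp3 and Gbp7 read on the opposite strand to the gene. A match is a description of the sequence and shows no binding in these lungs.

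**Figure D1:**
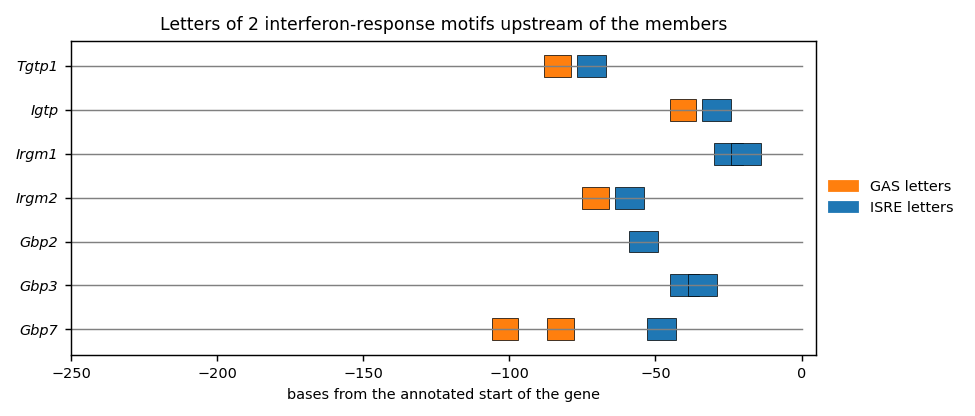
Positions of GAS letters (orange) and ISRE letters (blue) in bases from the annotated start of 7 members, read over 250 bases upstream. The farthest match begins at -106 bases (Gbp7), and in Tgtp1, Igtp and Irgm2 the GAS letters stand 2 bases before the ISRE letters.

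The members had a common shape over concentration. They were alike in 1 ppm and air, highest at 5 ppm, lower and nearly level from 10 to 40 ppm (Gbp7 excepted), and somewhat higher again at 120 ppm. The arrays as a whole also lay farthest from air at 5 ppm, along an axis given below. By group mean of the main probe sets, 5 ppm was the highest and 120 ppm the next for 9 of 9 members. The share of all genes with that order was not counted. The 2 groups differed by more than the larger SD in only Iigp1, Gbp7 and Gbp10. The 120 ppm mean exceeded that of the group next below by more than the larger SD in only Iigp1, Gbp2 and Gbp3. In the other Gbp10 probe set the 120 ppm mean (4.185) lay below that of 10 ppm (4.216). In Tgtp1, Igtp, Irgm1, Irgm2 and Gbp2 the order of 5 and 120 ppm rested on 5 ppm mice 2 and 5, as given below. At 1 ppm the 9 differences from air ran from -0.12 (Igtp) to 0.25 (Irgm2), each smaller than its standard error. At 5 ppm they ran from 1.55 ± 0.38 (SE, Igtp) to 3.49 ± 0.39 (Iigp1), with a median of 2.49, against a median of -0.23 over all genes. At 10, 20, 40 and 120 ppm the members' medians were 1.26, 1.13, 1.37 and 1.68, and those over all genes lay between -0.15 and -0.11. In whole lung, more cells of a type and more RNA per cell cannot be told apart.

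**Figure D2:**
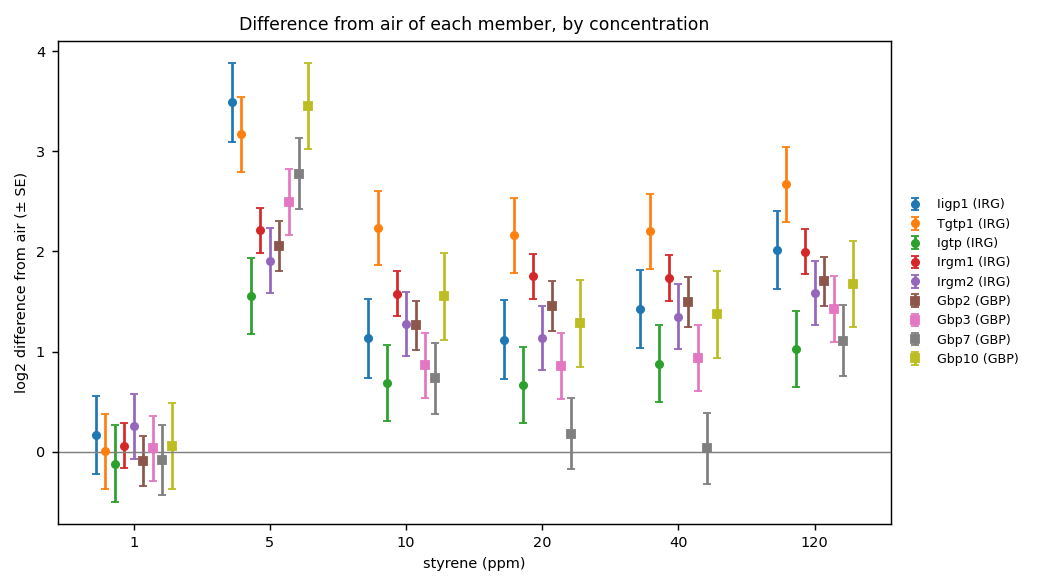
Difference from air (log2, ± SE of the fit, n = 5 mice per group) of each of the 9 members at 6 concentrations, with circles for IRG and squares for GBP members. The differences are near 0 at 1 ppm, 1.55 to 3.49 at 5 ppm, and 1.03 to 2.67 at 120 ppm.

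Iigp1 (Irga6) is an effector that coats the parasite vacuole early. It read 5.12, 5.33, 5.13, 6.08 and 5.53 log2 in the air mice, 6.34, 4.12, 5.83, 5.88 and 5.85 at 1 ppm, and 8.13, 9.59, 7.82, 8.14 and 10.96 at 5 ppm. It read 6.48, 6.15, 6.95, 6.23 and 7.04 at 10 ppm, 5.97, 6.80, 6.33, 6.99 and 6.70 at 20 ppm, 6.85, 7.02, 6.55, 7.19 and 6.71 at 40 ppm, and 7.24, 7.77, 7.47, 7.26 and 7.52 at 120 ppm. Every mouse at 5 ppm lay above every other mouse of the series, and every mouse at 120 ppm above every mouse at 40 ppm. In the other Iigp1 probe set these last 2 groups overlapped, with a lowest of 6.25 at 120 ppm and a highest of 6.28 at 40 ppm. The 10 and 20 ppm mice overlapped those at 1 ppm. At 5 ppm Iigp1 had the largest difference from air among all 17097 genes, at 11.2-fold, and it was among the genes for which the list was made.

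Tgtp1 (Irgb6), an effector that binds the vacuole and recruits ubiquitin ligases, had another balance of peak and level. Its levels were 6.55, 6.20, 6.19, 7.33 and 7.14 log2 in air, 6.45, 6.54, 6.95, 6.42 and 7.07 at 1 ppm, and 8.56, 10.78, 9.30, 9.08 and 11.55 at 5 ppm. They were 8.82, 9.09, 9.44, 8.56 and 8.67 at 10 ppm, 8.75, 8.81, 9.10, 8.65 and 8.89 at 20 ppm, 8.30, 8.70, 9.61, 8.92 and 8.89 at 40 ppm, and 8.53, 10.03, 10.02, 9.21 and 8.97 at 120 ppm. All 25 mice at 5 ppm and above exceeded all 10 mice at air and 1 ppm, while the groups from 5 to 120 ppm overlapped each other. The share of all genes that separate so was not counted, so this and the like counts of other members are descriptions only. Tgtp1 and Tgtp2 are close copies that the probes may not separate, so the value may be of their sum.

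The regulatory IRG genes had smaller peaks. Irgm1, without which mice fail to control mycobacteria, read 4.97, 4.84, 4.66, 4.83 and 5.39 log2 in air and 4.65, 4.93, 5.14, 5.09 and 5.19 at 1 ppm. It read 6.67, 7.69, 6.68, 6.49 and 8.21 at 5 ppm, 6.33, 6.70, 6.87, 6.31 and 6.38 at 10 ppm, and 6.45, 6.70, 6.69, 6.76 and 6.85 at 20 ppm. At 40 ppm it read 6.37, 6.56, 6.94, 6.92 and 6.58, and at 120 ppm 6.38, 7.27, 7.33, 6.86 and 6.83. As for Tgtp1, the 25 mice from 5 ppm up lay above the 10 below, with a gap, and overlapped among themselves. Irgm2 did so in 24 of the 25 mice and Igtp (Irgm3) in 23. Igtp ranged from 7.51 to 10.45 at 5 ppm and from 6.99 to 8.82 at 120 ppm, against 6.39 to 7.46 in air. Igtp had the smallest difference from air of the 9 at 5 ppm (1.55 ± 0.38) and at 120 ppm (1.03 ± 0.38).

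Among the GBP genes, which lie in clusters on chromosomes 3 and 5, Gbp2 binds the vacuole of Toxoplasma and of bacteria. Gbp2 read 7.34, 7.21, 7.71, 7.72 and 8.21 log2 in air, 7.56, 7.32, 7.54, 7.51 and 7.81 at 1 ppm, and 9.0, 9.92, 9.18, 9.11 and 11.26 at 5 ppm. From 10 to 40 ppm its 15 mice lay between 8.71 and 9.44, and at 120 ppm they read 9.19, 9.45, 9.39, 9.28 and 9.40. Its levels from 5 ppm up were all above those of air and 1 ppm, with a spread of only 8.83 to 9.01 at 10 ppm.

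Gbp10 is a chromosome 5 GBP nearly identical to Gbp6 in parts, and its probe sets may not separate the pair. It read 7.34, 9.52, 7.63, 7.30 and 10.76 log2 at 5 ppm, against 4.72, 4.96, 5.16, 4.71 and 5.72 in air, a difference of 3.45 ± 0.43. It read 5.10, 4.95, 4.83, 5.35 and 5.33 at 1 ppm, and from 5.80 to 7.15 over the 15 mice from 10 to 40 ppm. By the main probe sets, Gbp10 exceeded every air and 1 ppm mouse in all 25 mice from 5 ppm up, and Gbp3 in 22, again without a share over all genes. The other Gbp10 probe set overlapped: its lowest mouse read 3.43 at 20 ppm and at 120 ppm, against 3.24 to 3.65 in air. Gbp3 ranged from 7.04 to 9.76 at 5 ppm and from 6.48 to 7.00 at 120 ppm, against 4.79 to 5.93 in air.

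Gbp7, which in mouse macrophages helps to assemble the NADPH oxidase on bacterial vacuoles, differed in shape from the other 8. It read 6.58, 6.31, 6.31, 5.87 and 7.12 log2 in air, 6.26, 6.13, 6.35, 6.64 and 6.40 at 1 ppm, and 8.41, 9.80, 8.68, 8.48 and 10.69 at 5 ppm. It read 6.53, 7.87, 7.70, 6.36 and 7.40 at 10 ppm, 5.96, 7.04, 5.82, 7.15 and 7.12 at 20 ppm, 6.53, 6.52, 6.36, 7.10 and 5.86 at 40 ppm, and 7.72, 7.49, 7.32, 8.07 and 7.12 at 120 ppm. No mouse at 40 ppm was above the highest air mouse, and the 20 ppm mice overlapped air as well. Its difference from air was 2.78 ± 0.35 at 5 ppm, 0.73 ± 0.35 at 10 ppm, 0.18 ± 0.35 at 20 ppm, 0.036 ± 0.35 at 40 ppm and 1.11 ± 0.35 at 120 ppm. The other Gbp7 probe set ranged from 6.03 to 6.93 at 40 ppm, against 5.21 to 5.96 in air, so the 2 probe sets disagree on the return to the air level. The other probe sets of Iigp1, Gbp2 and Gbp10 peaked at 5 ppm as their main ones did: that of Iigp1 ranged from 7.38 to 10.33 there, against 4.93 to 5.79 in air.

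**Figure D3:**
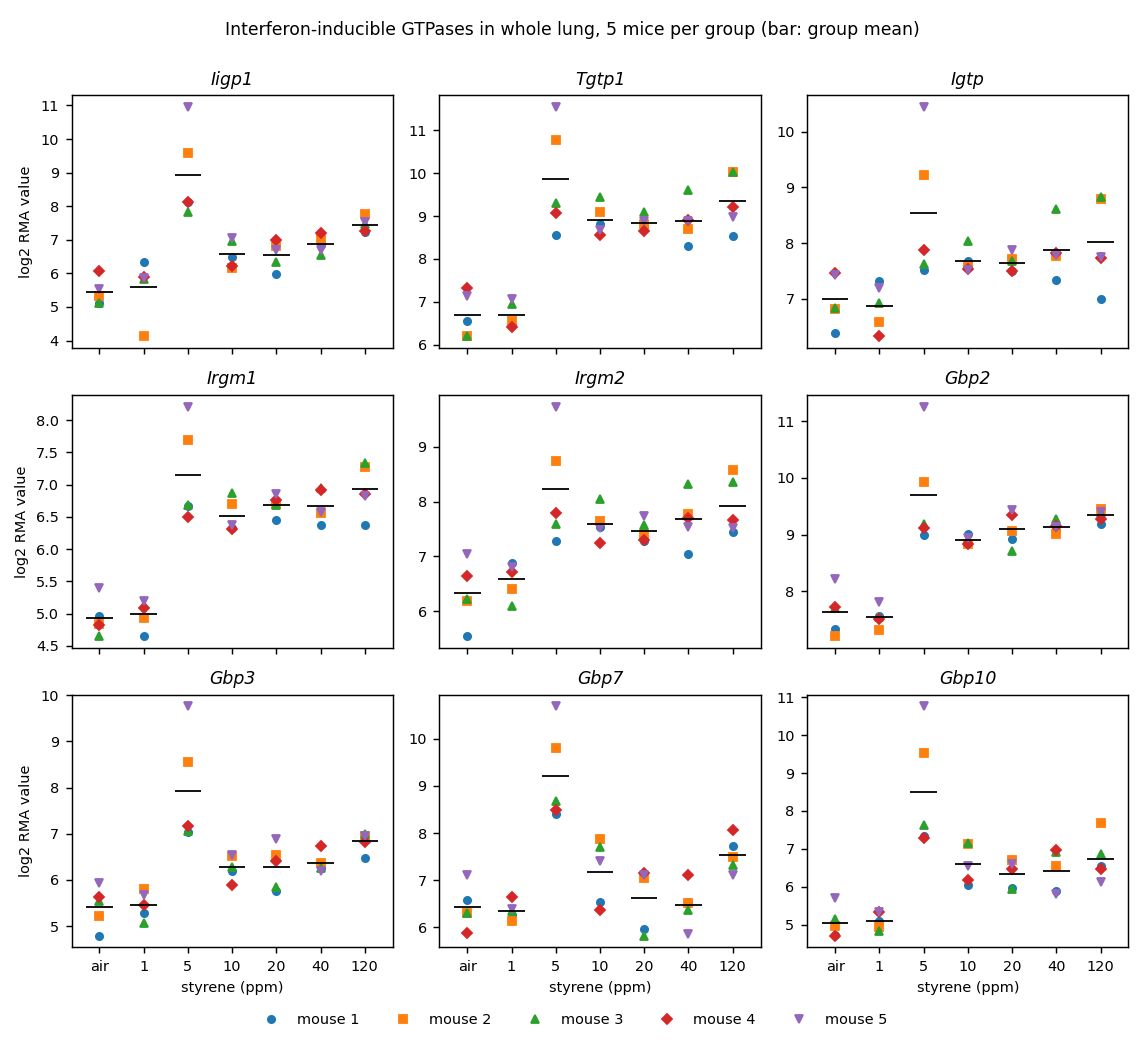
Log2 RMA value of the main probe set of each member (vertical axis, 1 panel per gene with its own scale) in the 5 mice of each group (horizontal axis, styrene in ppm, air at 0 ppm), with a bar at the group mean. Mice 5 and 2 of the 5 ppm group are the highest and the next highest of their group in all 9 panels, and for Gbp7 no mouse at 40 ppm lies above the highest air mouse.

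The peak at 5 ppm was uneven between members. Between 5 and 10 ppm the differences were 2.36 ± 0.39 (Iigp1), 2.04 ± 0.35 (Gbp7), 1.90 ± 0.43 (Gbp10) and 1.63 ± 0.33 (Gbp3). The remaining 5, Tgtp1, Igtp, Gbp2, Irgm2 and Irgm1, had 0.63 to 0.94. The 4 IRG genes of chromosome 11 and Gbp2 thus had the smaller differences, and Iigp1 and the other GBP genes the larger ones. Between 120 and 40 ppm the differences were 0.15 (Igtp) to 1.07 ± 0.35 (Gbp7), all positive. Over all genes the median difference was -0.10 for 5 against 10 ppm and -0.015 for 120 against 40 ppm.

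The level part of the curve was tested against the 1 ppm mice, which no listing of the members used. At 10 ppm 8 of 9 members rose, where 70.8% of all genes were called and 31.2% were higher (limma, Benjamini-Hochberg adjusted p under 0.05 over 17097 genes, two-sided, n = 5 each). Tgtp1 averaged 8.92 at 10 ppm and 6.69 at 1 ppm, a difference of 2.23 ± 0.37 (adjusted p = 3.37e-06). Irgm1 rose by 1.52 ± 0.22 (4.39e-07), Gbp10 by 1.496 ± 0.43 (0.00275) and Gbp2 by 1.355 ± 0.25 (1.33e-05). Irgm2, Iigp1, Gbp3 and Gbp7 rose by 0.82 to 1.02, and Igtp differed by 0.80 ± 0.38 without passing (adjusted p = 0.0591). Tgtp1 stood at rank 121 of the 17097 genes by difference.

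At 20 ppm 7 of 9 members rose against 1 ppm, where 68.0% of all genes were called and 31.9% were higher. Tgtp1 rose by 2.16 ± 0.37 (adjusted p = 6.26e-06), Irgm1 by 1.69 ± 0.22 (6.85e-08) and Gbp2 by 1.55 ± 0.25 (1.69e-06). Igtp (0.78, adjusted p = 0.0679) and Gbp7 (0.26, adjusted p = 0.516) did not pass. At 40 ppm 8 of 9 rose, where 69.9% of all genes were called and 31.1% were higher. Tgtp1 rose by 2.20 ± 0.37 (4.42e-06), Irgm1 by 1.68 ± 0.22 (7.42e-08), Gbp2 by 1.59 ± 0.25 (1.08e-06) and Igtp by 1.00 ± 0.38 (0.0205). Gbp7 at 0.12 ± 0.35 (adjusted p = 0.772) was the one that did not pass. All 5 mice at 40 ppm lay above all 5 at 1 ppm for 8 of 9 members, at 10 ppm for 7 and at 20 ppm for 6, against 26.5%, 26.4% and 24.3% of all genes.

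These counts share the 1 ppm mice and are not independent of each other. They fell to 4, 3 and 4 at 10, 20 and 40 ppm when the arrays were quantile normalised, and to 5 at 10 ppm without 10 ppm mouse 5. Arrays of air and 1 ppm had an interquartile range of 2.66 to 3.16, and those from 5 to 120 ppm of 3.28 to 3.54, so the compared groups share no range of it. With that range as a covariate 0 members were called in each of the 3 comparisons, and with the largest axis of spread between mice of a group (array axis) 2, 3 and 3 were called. Along that axis the 5 ppm arrays ranged from -59.2 to -43.5 and overlapped no other group. Air ranged from 27.1 to 80.0, 1 ppm from 41.9 to 80.1 and 10 ppm from -33.0 to -3.24. At 20 ppm the range was -25.2 to 20.7, at 40 ppm -20.9 to 0.245 and at 120 ppm -40.0 to -2.26. The part of the array-wide difference in these results and in the members' shape over concentration cannot be told apart from that of exposure.

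Between 40 and 10 ppm no member was called, nor was any other gene (0%, limma, with 411 genes under an unadjusted p of 0.05, 0 of them members). Differences ran from -0.70 ± 0.35 (Gbp7) to 0.295 ± 0.39 (Iigp1), with a median of 0.077 against 0.014 over all genes.

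The 5 mice at 5 ppm were far apart. Mouse 5 was the highest in 13 of 13 probe sets and mouse 2 the next in 13 of 13. Mouse 5 exceeded the highest of mice 1, 3 and 4 by 1.53 (Irgm1) to 3.13 (Gbp10), and mouse 2 did so by 0.74 (Gbp2) to 1.89 (Gbp10). Without these 2 mice, a choice made after their values were seen, the differences between 5 ppm and air were 2.59 for Iigp1, 2.37 for Gbp10, 2.29 for Tgtp1 and 2.09 for Gbp7. Gbp3, Irgm1, Gbp2, Irgm2 and Igtp then differed by 0.69 (Igtp) to 1.68 (Irgm1). The differences were then smaller than those between 120 ppm and air for Tgtp1 (2.29 against 2.67), Igtp (0.69 against 1.03) and Irgm1 (1.68 against 2.00). They were also smaller for Irgm2 (1.23 against 1.58) and Gbp2 (1.46 against 1.70), and larger for Iigp1, Gbp3, Gbp7 and Gbp10. For Igtp, Tgtp1, Irgm1 and Gbp10 the 3 remaining mice lay within the range of the 120 ppm group. For Iigp1, Gbp3 and Gbp7 they lay above it, and for Gbp2 below it.

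Other transcripts also varied between these 5 mice. In mice 1 to 5 the mean deviation from the 5 ppm mean was -0.91, 0.67, -0.73, -0.66 and 1.64 for the IRG members. For natural killer (NK) cell markers (7 measured) it was -0.67, 0.44, 0.09, -0.29 and 0.43, and for the type I interferon list (16 measured) -0.28, 0.25, -0.23, -0.09 and 0.35. Neutrophil markers (4 measured) had -1.48, 0.05, -0.15, 0.42 and 1.15, while T cell and macrophage markers stayed within 0.17 of their mean. B cell markers (3 measured) had -0.93, 0.59, 0.36, 0.61 and -0.62, so they were low in mouse 5. NK markers were thus also high in mice 2 and 5, and neutrophil markers in mice 4 and 5. Of the 7 NK markers 4 were called higher at 5 ppm than in air, among them Gzma and Ncr1, and 2 lower, where 29.6% of all genes were higher and 47.4% lower. The 2 that fell were Prf1 (perforin, -1.04 ± 0.24, adjusted p = 0.000306) and Nkg7 (-1.17 ± 0.34, 0.0026). Without mice 2 and 5, 0 were higher and 2 lower (72.4% of all genes called). Summed as a mean level, the 7 NK markers ranged from 4.81 to 5.93 at 5 ppm, against 5.02 to 5.45 in air. The part of NK cells, neutrophils and B cells in the members' result was not tested.

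**Figure D4:**
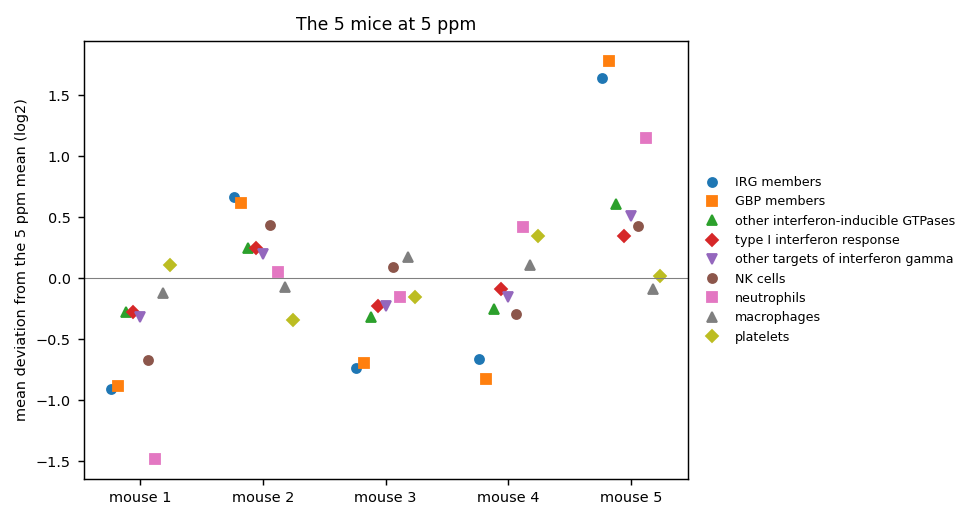
Mean deviation from the 5 ppm group mean (log2) of the IRG and GBP members and of 7 gene lists in each of the 5 mice at 5 ppm. Mouse 5 stands at 1.64 (IRG) and 1.78 (GBP), above all lists shown. Mouse 1 is the lowest for both families and for every list shown except the other GTPases and platelets.

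IRG and GBP members also moved together between mice of the same group. The listing did not use this spread itself. It did use the high 5 ppm levels of Iigp1 and Gbp10, which 5 ppm mice 2 and 5 raised. The mean deviation of the 5 IRG members from their group mean correlated with that of the 4 GBP members at Pearson r = 0.85 and Spearman rho = 0.73 over 35 mice. The permutation p, drawn within groups 100000 times and two-sided, was 1e-05 for r, the smallest these permutations can give, and 4e-05 for rho. Without the 2 mice farthest from the median of the GBP deviation (5 ppm mice 5 and 1) r was 0.69 (permutation p = 0.00024), and without the 5 ppm group 0.53 (0.00112). Within the 25 mice from 5 to 120 ppm r was 0.88 (permutation p = 4e-05), and within the 10 mice of air and 1 ppm it was 0.53 (permutation p = 0.166). Of the 2 coefficients, a Benjamini-Hochberg adjustment gives p = 2e-05 for r and 4e-05 for rho over all mice.

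**Figure D5:**
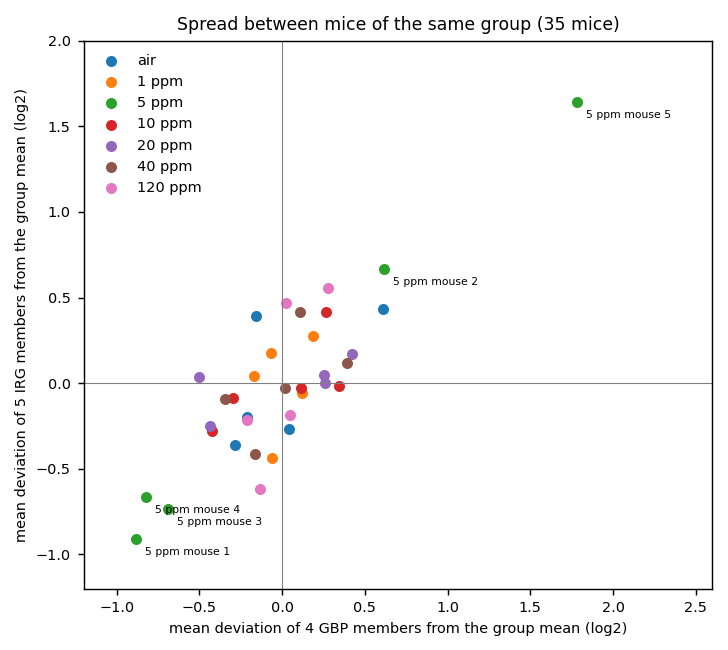
Mean deviation from the group mean (log2) of the 5 IRG members (vertical) and the 4 GBP members (horizontal) in 35 mice, 1 point per mouse, coloured by group. Mouse 5 at 5 ppm lies at 1.64 and 1.78, and the mice of the other groups lie nearer to 0.

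Pairs of members on the same chromosome had a higher median r than pairs on different chromosomes. All of the former are pairs within a family, and the order did not hold within the GBP genes. Within groups, the 9 such pairs had a median r of 0.865 over 35 mice and 0.64 over the 30 mice outside the 5 ppm group. The 27 pairs on different chromosomes had 0.75 and 0.41. Over 35 mice the chromosome 3 pairs had 0.88 (Gbp2 with Gbp3), 0.74 (Gbp3 with Gbp7) and 0.67 (Gbp2 with Gbp7). With Gbp10 on chromosome 5, Gbp2 had 0.80, Gbp3 0.84 and Gbp7 0.81. These are descriptions, since the points share arrays and mice. In the 120 ppm group mice 2 and 3 were the highest 2 for the chromosome 11 genes Tgtp1 (10.03 and 10.02), Igtp (8.79 and 8.82), Irgm1 (7.27 and 7.33) and Irgm2 (8.57 and 8.36). They were so for Gbp10 on chromosome 5 as well (7.68 and 6.86), whereas in Gbp7 the highest was mouse 4 at 8.07. Along the array axis, members differed: the correlation within groups was -0.63 for Gbp7 and -0.42 for Gbp3, but -0.003 for Tgtp1 and -0.022 for Igtp.

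The genes outside the list whose spread between mice was most like that of the members were, by Pearson r within groups over 35 mice, Gbp8 (0.88), Nlrc5 (0.86) and Ifi47 (0.83). Gbp8 is another GBP, Ifi47 (Irgd) another IRG, and Nlrc5 the activator of MHC class I genes. Each member correlated with the members' mean at 0.75 to 0.94. That mean includes the member itself, so these values cannot be set against those of genes outside the list. Next came Apol11b (0.77), Wars (0.77), Klra16 (0.76), Phf20l1 (0.72), Fgl2 (0.72), Phf11a (0.71) and Ppp3cc (0.71). Outside the 5 ppm group, over 30 mice, Nlrc5 stood at 0.81 and Phf20l1 at 0.74, whereas Klra16 stood at 0.125 and Apol11b at 0.28. Gbp8 read 5.09, 7.30, 4.53, 4.31 and 8.14 log2 at 5 ppm, against 3.12, 3.40, 3.55, 3.34 and 3.53 in air. Ifi47 read 7.61, 9.31, 8.06, 7.97 and 9.46 at 5 ppm, against 5.94, 6.39, 6.74, 7.06 and 6.89 in air. Mice 5 and 2 were the highest in both genes, as the choice by likeness to the members favours.

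A list of further GTPases related to the members also holds Irgq and Irgc1, which are not known to be induced by interferon. Of its 8 measured genes, of 17 listed, 3 were higher and 3 lower at 5 ppm than in air, where 77.0% of all genes were called, 29.6% higher and 47.4% lower. Gbp8 (2.49 ± 0.42, adjusted p = 2.95e-06) and Ifi47 (1.88 ± 0.27, 1.38e-07) rose. Irgq fell by 1.44 ± 0.10 (1.6e-14) and Gbp4 fell by 0.93 ± 0.12 (1.76e-08). Gbp4 read 3.44, 3.50, 3.57, 3.64 and 3.99 at 5 ppm, against 4.91, 4.85, 4.51, 4.15 and 4.36 in air, so the groups did not overlap. Without 5 ppm mice 2 and 5, 2 of the 8 were higher and 3 lower (72.4% of all genes called). At 40 against 1 ppm, where 38.8% of all genes were lower, 1 of the 8 rose, Ifi47 (1.34 ± 0.27, adjusted p = 4.57e-05), and 3 fell, Irgq, Gbp4 and Irgc1.

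Interferon gamma itself read below the array medians of 4.35 to 4.56. Ifng read 2.88, 3.10, 3.10, 3.31 and 3.17 log2 at 5 ppm, against 3.77, 3.04, 3.42, 3.07 and 3.27 in air, and did not pass (-0.20 ± 0.12, adjusted p = 0.128). Of 15 genes of its signalling, of 16 listed, 5 were higher and 8 lower at 5 ppm than in air, beside 29.6% and 47.4% of all genes. Jak1, a kinase of the receptor, rose by 2.28 ± 0.18 (2.93e-13), and Ptpn2, a phosphatase that damps the pathway, by 1.64 ± 0.15 (1.08e-11). Irf1 fell by 0.35 ± 0.10 (0.00384). Irf8, a factor of macrophage development, fell by 1.54 ± 0.14 (6.09e-12). The receptor chain Ifngr2 fell by 1.28 ± 0.13 (2.86e-10), whereas the receptor chain Ifngr1 rose by 0.825 ± 0.14 (3.67e-06).

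Of 15 measured genes, of 18 listed, that interferon gamma is known to induce, 4 were higher and 7 lower at 5 ppm than in air, and without 5 ppm mice 2 and 5 it was 2 and 7. These counts are near the 29.6% and 47.4% of all genes and are no result about the list. Parp14 (2.22 ± 0.18, adjusted p = 1.4e-12) and Cd274 (PD-L1, 1.28 ± 0.18, 1.13e-07) rose. The peptide-loading chaperone Tapbp fell by 0.89 ± 0.08 (3.15e-12), and the immunoproteasome subunit Psmb10 fell by 1.25 ± 0.11 (1.2e-11). In the type I interferon list 10 of 16 (20 listed) were higher and 5 lower, with a median of 1.48 against -0.23 over all genes. Ifit1, which binds foreign RNA caps, rose by 3.06 ± 0.26 (1.87e-12). Ifit1 read 7.54, 8.04, 7.69, 7.28 and 7.79 at 5 ppm, against 3.99, 4.52, 4.53, 4.43 and 5.54 in air. Its 5 ppm mice lay closer together than those of the GTPases, though mice 2 and 5 were the highest here too. Oasl2, of the same list, varied more, with 6.21, 6.94, 6.04, 6.67 and 7.37 at 5 ppm.

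Of 13 measured genes of the ubiquitin-like conjugation that loads the GTPases on membranes, of 14 listed, 5 were higher and 8 lower at 5 ppm than in air, beside 29.6% and 47.4% of all genes. Atg5 rose by 1.98 ± 0.13 (adjusted p = 6.77e-15) while Atg7 fell by 1.52 ± 0.11 (5.45e-14), and both belong to the same conjugation chain. Of 9 measured vacuole and inflammasome partners, of 13 listed, 6 were higher and 1 lower. Casp4, the caspase that senses bacterial lipopolysaccharide, rose by 2.19 ± 0.20 (adjusted p = 2e-11). At 40 against 1 ppm the type I list had 9 higher and 5 lower of 16 and the vacuole list 6 and 2 of 9. Of all genes 31.1% were higher and 38.8% lower in that comparison.

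Markers of lung epithelium were present in every mouse. Their mean level over 6 was 11.89 to 12.17 at 5 ppm, against 12.30 to 12.53 in air. These groups did not overlap, but the share of all genes that separate so was not counted. Of the 6, 2 were higher and 3 lower at 5 ppm than in air, counts near the shares of all genes and no result about the list. In that comparison 29.6% of all genes were higher and 47.4% lower, which holds for each marker count at 5 ppm below. Aqp5, a water channel of alveolar type 1 cells, fell by 0.96 ± 0.12 (adjusted p = 2.3e-08), and Foxj1, of ciliated cells, fell by 1.22 ± 0.31 (0.00078). Ager fell by 0.18 ± 0.06 (0.0047), whereas Sftpa1 rose by 0.22 ± 0.07 (0.00406) and Scgb1a1 by 0.15 ± 0.05 (0.012). Markers of platelets were lower in the groups with high members: 4 of 4 fell at 5 ppm against air, and their mean level ranged from 5.99 to 6.69 at 5 ppm, against 8.09 to 8.55 in air. They also fell in 4 of 4 at 10 and at 40 ppm against 1 ppm, where 39.5% and 38.8% of all genes were lower. Those of red blood cells fell in 2 of 3, with mean levels of 8.82 to 9.94 at 5 ppm, against 10.26 to 10.91 in air. Of 8 macrophage markers 4 were higher and 2 lower, with mean levels of 8.17 to 8.45 at 5 ppm, against 7.33 to 8.15 in air. The part of these cells in the members' levels was not tested.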

How the data were processed

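Per the submitters' processing notes, the authors deposited log2 values made with RMA, and Partek is also named. RMA yields 1 background-corrected, normalised summary per probe set. The table held 45037 probe sets on 35 arrays, of which 28898 had 1 gene symbol in the platform annotation, 551 several and 15588 none. Arrays have no read depth, and 5 mice per group limit the precision. The 7 group means of 17097 genes were fitted in limma (version 3.58.1, R 4.3.3), followed by eBayes and Benjamini-Hochberg adjustment, without a filter on dim genes. The p-values measure only the spread between these mice.

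The members, the gene lists and the tests were chosen with earlier results of these data known. The GBP mean was set down for 5 genes and was taken over the 4 measured. Named list genes are up to 4 per list with the smallest adjusted p among called genes at 5 ppm against air and at 40 against 1 ppm. Ifng, Irf1, Irf8, Gbp4 and Ifi47 could be named whatever they did. Marker genes follow the same rule, and the genes most like the members are the 10 highest by r. Listed genes without a probe set of their own, such as Gbp5, were not analysed here. Permutations used scipy 1.17.1 and numpy 2.4.6 in Python 3.11.15. On data simulated for 40 against 1 ppm over 17097 genes, the fit called 94 of 100 genes changed by 1 log2 unit, 99 of 100 changed by 2 and 8 of 16897 unchanged. That simulation had independent noise per gene and no array-wide shift, so its rates need not hold for the real arrays. Alternatives were other normalizations, probe set rules, filters, variance models, array covariates, array weights, a block on the mouse number and leaving out each mouse.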

Additional observations from a re-analysis of the deposited data

Results flagged for a closer look

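Of 63 groups of 5 mice tested (9 members in 7 groups), 1 held a mouse far from the others. Iigp1 in 1 ppm mouse 2 read 4.12 log2, where the other 4 mice of that group read 5.83 to 6.34, and its distance to the nearest was 0.769 of the range of the group. Chance alone would mark about 1 in 20 groups. The other Iigp1 probe set read 5.43 in that mouse, against 5.64 to 6.04 in the other 4. Without that mouse Iigp1 differed by 0.59 between 10 and 1 ppm (adjusted p = 0.159, limma) and by 0.58 between 20 and 1 ppm (0.173). It passed the threshold in neither.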

How the results depend on the processing

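Of the 9 members, 8, 7 and 8 were called at 10, 20 and 40 ppm against 1 ppm. Quantile normalization left 4, 3 and 4, the array axis as a covariate 2, 3 and 3, the interquartile range as a covariate 0 in each, and an adjusted p under 0.01 left 5 at 10 ppm and 3 at 20 ppm. Averaging each gene's probe sets left 7, 5 and 7, without Iigp1 at 10 and 20 ppm (adjusted p = 0.0752 and 0.117) and Gbp10 at 20 and 40 ppm (0.079 and 0.0545). Leaving out 1 mouse gave 5 to 8, 5 to 7 and 7 to 8, and 0 to 0 for 40 against 10 ppm. The covariates are extrapolated, because the groups compared share no range of them, and the cause of the other losses was not tested. Signs turned at 10 ppm for Iigp1 (-0.033), Gbp3 (-0.39) and Gbp7 (-1.15) with the axis and for Iigp1 (-0.56) and Gbp7 (-1.26) with the interquartile range. At 20 ppm they turned for Gbp7 under quantile normalization (-0.105), for Gbp3 (-0.19) and Gbp7 (-1.38, adjusted p = 0.0197) with the axis, and for Iigp1 (-0.52), Gbp7 (-1.745) and Gbp10 (-0.036) with the range. At 40 ppm they turned for Gbp7 under quantile normalization (-0.28), for Gbp3 (-0.18) and Gbp7 (-1.625, adjusted p = 0.00872) with the axis, for Iigp1 (-0.27) and Gbp7 (-1.96) with the range, and for Gbp7 without 40 ppm mouse 4 (-0.037, with 0.27 at the other end). For 40 against 10 ppm, leaving out 1 mouse turned Tgtp1 (-0.21 to 0.11), Irgm2 (-0.086 to 0.24) and Gbp3 (-0.022 to 0.14). The members' median difference from air at 120 ppm was 0.95 with the axis and 0.965 with the range, and 1.44 to 1.85 without 1 mouse. That at 5 ppm was 2.04 to 2.71 without 1 mouse. Igtp at 10 ppm passed without the 5 ppm group in the fit (adjusted p = 0.0109, chosen after seeing the data), with only the groups compared (0.00216) and with dim genes left out (0.0499). The correlation of IRG with GBP members was 0.71 to 0.87 without 1 mouse, lowest without 5 ppm mouse 5, and 0.53 in air and 1 ppm alone (permutation p = 0.166).

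The labels tie the mouse number to nothing shared, and same-numbered mice deviated together at r = -0.25 to 0.32. With the number as a replicate block 9, 7 and 8 members were called, with Igtp at 10 ppm passing (adjusted p = 0.0471), 0 at 40 against 10 ppm, and the correlation of IRG with GBP members was 0.82.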
